A study of Mus musculus with 11 samples.

Results

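The hepatic carboxylesterases described here are 9 genes, chosen by a list of Ensembl identifiers, out of 22019 genes in a table of ribosome footprint counts from mouse liver. They are Ces1d (ENSMUSG00000056973), Ces1e (ENSMUSG00000061959), Ces1f (ENSMUSG00000031725) and Ces1g (ENSMUSG00000057074) of the first subfamily, Ces2a (ENSMUSG00000055730), Ces2c (ENSMUSG00000061825) and Ces2e (ENSMUSG00000031886) of the second, and Ces3a (ENSMUSG00000069922) and Ces3b (ENSMUSG00000062181) of the third. The symbols came with the list, since the counts table holds identifiers alone, and all 9 symbols are on chromosome 8 in RefSeq (assembly GRCm38.p6). The samples were livers of male WT mice on 2 diets, but neither age nor time on the diet is stated in the labels. Footprints of about 60 nt (disomes, a ribosome stacked against the one ahead of it) came from 2 HFHS (High-Fat-High-Sugar diet) and 3 chow samples, and footprints of about 30 nt (monosomes, single ribosomes) from 3 HFHS and 3 chow samples. Each library is named here by the barcode in its column name. The labels give the samples of a group as replicates but do not say that they came from different animals. The p-values below then cover the spread among these libraries, which may be technical.

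Carboxylesterases are serine hydrolases that cut ester and amide bonds, and in hepatocytes most of them lie in the lumen of the endoplasmic reticulum. They break down many drugs and xenobiotics, and several act on triacylglycerol and other stored lipids, which links them to the assembly of very low density lipoprotein. The mouse has many related copies on 1 chromosome, and how alike their coding sequences are was not compared here. A short footprint can match several copies, and how such reads were counted is not stated in the labels. Each single-gene value below therefore carries the uncertainty that reads may have been split between copies. In bulk liver, fewer cells of a type and less RNA per cell cannot be told apart, and without a measure of mRNA, transcript abundance and ribosome load per transcript cannot be told apart.

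Total counts ran from 235748 to 238837 in HFHS disomes, 147212 to 279331 in chow disomes, 1196240 to 1612324 in HFHS monosomes and 795145 to 1248781 in chow monosomes. The 9 genes together took 0.445% and 0.453% of all counts in HFHS disomes, 0.411% to 0.460% in chow disomes, 0.543% to 0.630% in HFHS monosomes and 0.499% to 0.574% in chow monosomes. All 9 passed the count filter in every comparison, and the smallest count of any of them in any library was 20. The 2 chow libraries of barcode AGCTA stood apart: 30 genes reached over 20 CPM (a counts-per-million level) and over 8 times any other monosome library there, and took 4.15% of its monosome counts, against at most 0.0376% elsewhere. By the same rule 31 genes took 3.97% of its disome counts, against at most 0.0163% elsewhere. None of the 9 carboxylesterases was among either set. Because the files pair no identifiers with symbols, the liver label was not checked against hepatocyte markers here, and other genes of ester and lipid hydrolysis were not analysed here.

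The first question was which carboxylesterases changed their monosome or disome footprint level with the HFHS diet. In both footprint classes Ces2a was the 1 gene of the 9 to pass the test, and it fell. Its level was 2.11-fold lower in HFHS than in chow in monosomes and 1.99-fold lower in disomes, where 1.63% of all genes tested in monosomes and 1.14% of those in disomes were called lower. Several others (Ces1d, Ces1e, Ces1g, Ces2e and Ces3a) lay higher in every HFHS than in every chow monosome library, with log2 fold changes of 0.31 to 0.42. None of them passed the test across all genes, and 18.4% of all genes of at least 50 CPM likewise lay higher in every HFHS library. Levels are given in CPM after TMM scaling over all 11 libraries. Fold changes come from edgeR's quasi-likelihood test within each class, with p-values adjusted by Benjamini-Hochberg over all genes tested and a threshold of 0.05.

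**Figure D1:**
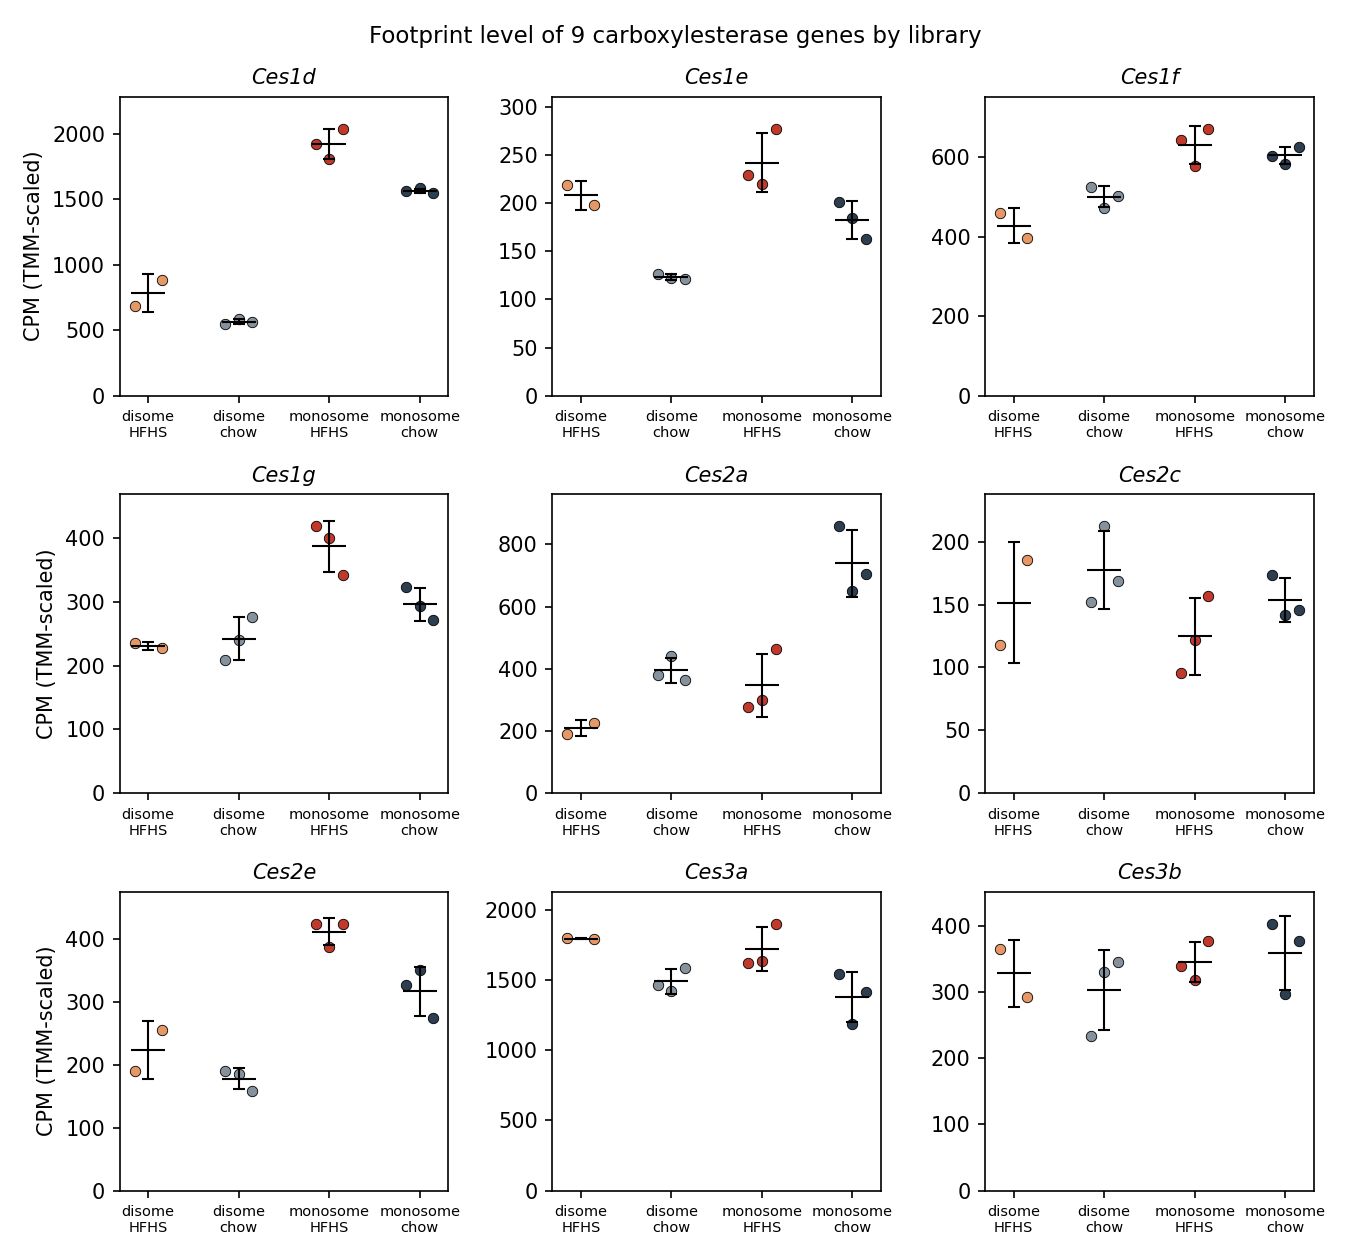
Footprint level (CPM, TMM-scaled, linear axis from 0) of each of the 9 genes in each library, as points, with the mean and SD of each group as bars; the groups run from disomes to monosomes, HFHS left of chow in each class. For Ces2a, HFHS libraries lie below all chow libraries in both classes; Ces1d lies lower in every disome than in every monosome library.

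In the order of carboxylesterase genes in the RefSeq table, Ces2b comes between Ces2a and Ces2c, and Ces2d-ps between Ces2c and Ces2e. Genes of other families were left out of that order. Ces2a passed the test and Ces2c and Ces2e did not, but their fold changes were not tested against each other. Any link of upstream bases to footprint levels was not tested either. Shown are the 250 bases before each annotated start, from RefSeq (GRCm38.p6), 5′ to 3′ on the + strand, the strand of all 3. They are chr8:104733753-104734002 for Ces2a, chr8:104846818-104847067 for Ces2c and chr8:104926010-104926259 for Ces2e. Capitals mark runs of at least 6 bases that were identical in all 3 after alignment with MAFFT.
Ces2a: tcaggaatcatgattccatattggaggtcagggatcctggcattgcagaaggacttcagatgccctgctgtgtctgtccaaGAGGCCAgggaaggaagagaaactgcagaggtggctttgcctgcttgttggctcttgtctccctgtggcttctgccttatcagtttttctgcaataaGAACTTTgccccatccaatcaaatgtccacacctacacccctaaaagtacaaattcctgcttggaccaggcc
Ces2c: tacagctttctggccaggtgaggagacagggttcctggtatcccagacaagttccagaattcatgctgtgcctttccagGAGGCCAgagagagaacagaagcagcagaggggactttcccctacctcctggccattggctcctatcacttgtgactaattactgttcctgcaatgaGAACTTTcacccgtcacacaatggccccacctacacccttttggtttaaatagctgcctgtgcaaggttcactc
Ces2e: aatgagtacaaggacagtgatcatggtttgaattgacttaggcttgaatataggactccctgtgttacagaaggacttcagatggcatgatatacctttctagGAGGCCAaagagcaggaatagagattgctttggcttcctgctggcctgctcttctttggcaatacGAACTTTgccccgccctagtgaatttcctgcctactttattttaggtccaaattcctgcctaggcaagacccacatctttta

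In this alignment 96 columns, 38.4% of the 250 bases, were identical in all 3 genes, and 2 runs of 7 bases reached the minimum length. Aligned in pairs, 62.0% of bases matched between Ces2a and Ces2c, 56.8% between Ces2a and Ces2e and 50.4% between Ces2c and Ces2e. RefSeq promoter entries were matched by symbol for 6 of the 9 genes. The 12 other pairs among these 6 windows, Ces1e with Ces1g included, matched at 22.4% to 41.6%. The letters AGGTCA, a core motif of many nuclear receptors, searched on both strands, occurred in 1 of the 6 windows, that of Ces2a, 226 bases before the start. Of 32851 upstream windows of this length in the table, 14.0% hold these letters. The letters TATAAA were in none of the 3 windows shown and in 2 of the 6, those of Ces1g and Ces3b, against 12.4% of all windows. Also searched were CCAAT, in 4 of the 6 windows against 33.8% of all windows, and CACGTG, in 0 of the 6 against 6.02%. The windows with CCAAT were those of Ces1g, Ces2a, Ces2c and Ces3b. A match describes the letters and shows no binding.

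Ces2a belongs to the second subfamily, whose members in mouse liver hydrolyse xenobiotic esters and acylglycerols. Its monosome level was 278, 299 and 464 CPM in HFHS livers, against 651, 706 and 859 CPM in chow livers. The groups did not overlap, and the HFHS library of barcode GCATA was the highest of its group. The means were 347 ± 102 CPM in HFHS and 738 ± 108 CPM in chow (SD, n = 3 each). On the log2 scale the fold change was -1.08 ± 0.18 (SE, edgeR adjusted p = 0.00113). The call held with each library left out in turn, with log2 fold changes from -1.34 to -0.93.

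In disomes, Ces2a had 191 and 227 CPM in HFHS livers, against 363, 380 and 441 CPM in chow livers. Again the groups did not overlap. The log2 fold change was -0.99 ± 0.22 (SE, edgeR adjusted p = 0.000843, n = 2 HFHS and 3 chow). The disome call rested on 102 counts in HFHS and 286 in chow over whole groups. It was lost with DESeq2 (log2 fold change -0.93, adjusted p = 0.142). It was also lost without the HFHS library CTAGA (log2 fold change -0.87), a fit with 1 HFHS disome library left. Without the AGCTA library of each class Ces2a kept its call, with adjusted p = 0.00222 in monosomes and 0.00700 in disomes.

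Neither of the other members of the second subfamily passed the test. Ces2c, an acylglycerol and xenobiotic hydrolase, had 95.6, 122 and 157 CPM in HFHS monosomes, against 142, 146 and 174 CPM in chow monosomes. These groups overlapped, and the log2 fold change of -0.29 ± 0.16 did not pass (adjusted p = 0.364). The highest HFHS value again lay in the library GCATA. In disomes Ces2c had 118 and 186 CPM in HFHS, against 152, 169 and 213 CPM in chow (log2 fold change -0.32 ± 0.25, adjusted p = 0.656). With 1 library left out the disome value of Ces2c ran from -0.66 to -0.018.

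Ces2e, another lipid and xenobiotic esterase of liver and intestine, had fold changes of the opposite sign to Ces2a. Its level was 388, 423 and 425 CPM in HFHS monosomes, against 274, 327 and 351 CPM in chow monosomes. The groups did not overlap, yet the log2 fold change of 0.39 ± 0.14 (unadjusted p = 0.00902) missed the threshold after adjustment (edgeR adjusted p = 0.114). In disomes it had 191 and 256 CPM in HFHS, against 159, 185 and 190 CPM in chow (log2 fold change 0.27 ± 0.23, adjusted p = 0.677), and the fold change of Ces2e ran from 0.052 to 0.46 with 1 library left out.

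The ratio of Ces2a to Ces2e counts within a library does not depend on scaling between libraries. In monosomes it was 0.656, 0.771 and 1.09 in HFHS livers, against 1.86, 2.57 and 2.63 in chow livers. In disomes it was 0.887 and 1.00 in HFHS, against 2.00, 2.28 and 2.38 in chow. In both classes every HFHS library lay below every chow library. This follows from the levels above, where Ces2a lay lower and Ces2e higher in every HFHS than in every chow library. The ratio is therefore no separate evidence. For Ces2e in disomes the groups were barely apart, with 190.6 CPM in HFHS library CTAGA and 189.8 CPM in chow library AGCTA. With plain library totals these 2 values were 199 and 204 CPM, so the groups overlapped. Summed over Ces2a, Ces2c and Ces2e, a sum that does not depend on how reads were split among these 3 copies, the monosome level was 883 ± 140 CPM in HFHS and 1209 ± 130 CPM in chow (SD, n = 3 each), a log2 ratio of -0.45 that was not tested. The disome sum was 499 and 668 CPM in HFHS, against 690 to 839 CPM in chow. A sum over copies in the list does not hold reads that went to copies outside it, such as Ces2b. Such a sum would also change if shared reads were discarded or counted more than once, which is not stated.

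**Figure D2:**
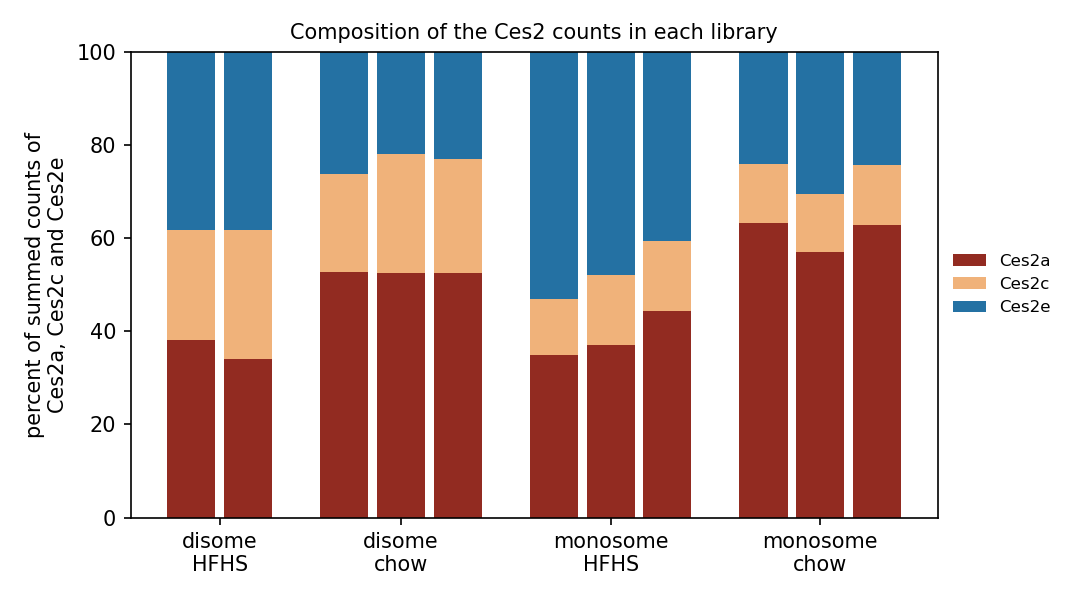
Share of the summed counts of Ces2a, Ces2c and Ces2e taken by each gene (percent, stacked bars, 1 bar per library, not per length); groups run from disomes to monosomes, HFHS left of chow in each class. Ces2a took 36.1% ± 3.01 in HFHS disomes (n = 2) against 52.6% ± 0.0485 in chow disomes, and 38.7% ± 4.99 in HFHS monosomes against 60.9% ± 3.49 in chow monosomes (SD, n = 3 each).

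The first subfamily holds the enzymes best known for triacylglycerol. Ces1d, the triacylglycerol hydrolase that mobilises stored lipid for lipoprotein assembly in mouse liver (older symbol Ces3, not to be taken for Ces3a), had 1806, 1919 and 2038 CPM in HFHS monosomes, against 1548, 1558 and 1582 CPM in chow monosomes. The groups did not overlap and the chow libraries lay close together. The log2 fold change was 0.31 ± 0.11 (unadjusted p = 0.00728, edgeR adjusted p = 0.102), short of the threshold. In disomes Ces1d had 681 and 882 CPM in HFHS, against 544, 563 and 583 CPM in chow (log2 fold change 0.40 ± 0.19, adjusted p = 0.303), and the fold change ran from 0.22 to 0.57 with 1 library left out.

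Ces1e is egasyn, which holds β-glucuronidase in the endoplasmic reticulum. It had 221, 229 and 278 CPM in HFHS monosomes, against 163, 185 and 201 CPM in chow monosomes (log2 fold change 0.42 ± 0.15, adjusted p = 0.112). Its disome level was 198 and 219 CPM in HFHS, against 121, 122 and 127 CPM in chow, the highest disome fold change of the 9 genes (log2 fold change 0.69 ± 0.26, unadjusted p = 0.00714, adjusted p = 0.141). HFHS lay above chow in all libraries of both classes, without passing the test in either. The chow disome values rested on 89 counts in all.

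Ces1f, a second triacylglycerol hydrolase close to Ces1d, overlapped between the diets in monosomes, with 579 to 672 CPM in HFHS and 583 to 626 CPM in chow (log2 fold change 0.08 ± 0.13, adjusted p = 0.832). In disomes its HFHS values of 396 and 458 CPM lay below the chow values of 473, 502 and 525 CPM (log2 fold change -0.30 ± 0.20, adjusted p = 0.568). Ces1g, whose loss in mice alters hepatic lipid secretion, had 342, 400 and 419 CPM in HFHS monosomes, against 271, 294 and 323 CPM in chow monosomes (log2 fold change 0.40 ± 0.14, adjusted p = 0.112). Its disome levels overlapped, with 227 and 235 CPM in HFHS and 209 to 277 CPM in chow (log2 fold change -0.16 ± 0.21, adjusted p = 0.825). Summed over the 4 genes, the monosome level was 3182 ± 164 CPM in HFHS and 2646 ± 39.6 CPM in chow (SD, n = 3 each), and the disome level 1594 and 1703 CPM in HFHS against 1404 to 1463 CPM in chow.

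Of the third subfamily, Ces3a had 1627, 1640 and 1906 CPM in HFHS monosomes, against 1186, 1415 and 1543 CPM in chow monosomes. The lowest chow value lay in the library AGCTA. The log2 fold change was 0.33 ± 0.12 (edgeR adjusted p = 0.116), and of the 12 alternatives run it passed under 1, without the chow library ATCGT (log2 fold change 0.43, adjusted p = 0.0376). In disomes Ces3a had 1794 and 1801 CPM in HFHS, against 1422, 1468 and 1590 CPM in chow (log2 fold change 0.19 ± 0.17, adjusted p = 0.694). Ces3b, its neighbour, had 319 to 378 CPM in HFHS monosomes, against 297 to 404 CPM in chow monosomes, and 293 and 365 CPM in HFHS disomes, against 234 to 347 CPM in chow disomes. It overlapped between diets in both classes, with log2 fold changes of -0.04 ± 0.14 in monosomes (adjusted p = 0.93) and 0.02 ± 0.21 in disomes (adjusted p = 0.991).

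**Figure D3:**
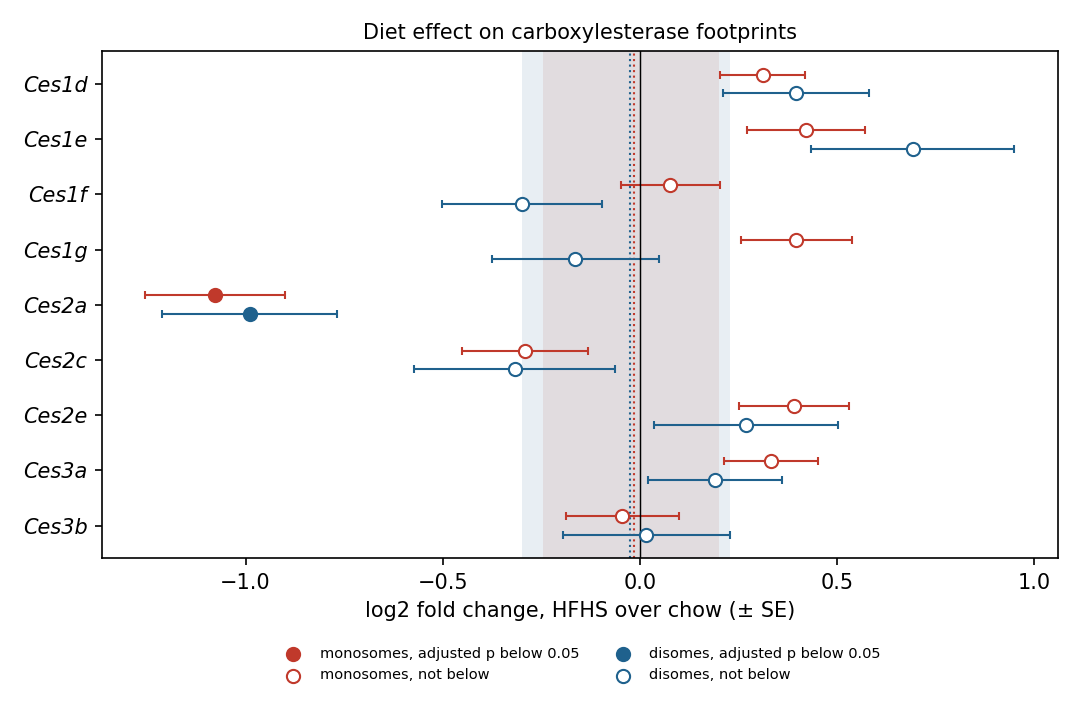
log2 fold change of HFHS over chow (x axis, ± SE) for each gene in monosomes and disomes, filled where the edgeR adjusted p was below 0.05; shaded bands span the interquartile range of all genes tested and dotted lines mark their medians. Ces2a is the 1 gene with filled points, at -1.08 in monosomes and -0.99 in disomes.

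Counted together, 0 of the 9 genes were called higher and 1 lower in HFHS monosomes, where 3.02% and 1.63% of all 6754 genes tested were called. In disomes 0 were called higher and 1 lower, where 1.82% and 1.14% of 2804 genes were called. The median log2 fold change of the 9 was 0.31 in monosomes, beside -0.02 for all genes tested, and 0.02 in disomes, beside -0.03. In monosomes 5 of the 9 lay above every chow library and 1 below. Among 2174 genes with a mean of at least 50 CPM in monosomes, 18.4% lay above and 12.1% below in this way. In disomes 4 of the 9 lay above and 2 below, where 19.9% and 11.4% of 2092 such genes did. Among those above in disomes, Ces2e was barely apart and overlapped with plain library totals. The Ces2a fold change stood at the 0.859th percentile of all monosome fold changes and the 2.46th of all disome fold changes.

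Whether disomes of a carboxylesterase responded to diet differently from its monosomes was tested as the difference of the diet effects, in 1 edgeR model over all 11 libraries. None of the 9 passed, with adjusted p = 1.00 for each (0.99995 before rounding) and differences on the log2 scale from -0.46 ± 0.26 for Ces1g to 0.35 ± 0.27 for Ces1e (SE). The smallest unadjusted p was 0.0823, that of Ces1g. For Ces2a the difference was 0.17 ± 0.26, so that the fall in disomes did not differ detectably from that in monosomes at this depth. Across all 7236 genes tested 0% were called in either direction, 358 had an unadjusted p below 0.05, and DESeq2 called 0 genes as well. With the barcode shared by a disome and a monosome library as a block, 7 genes were called lower, none of them among the 9. The labels do not state that a shared barcode marks the same liver, so this pairing is assumed.

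The disome level relative to the monosome level was then compared between the classes within each diet. A ratio within a gene does not depend on its length. It may still depend on how any reads shared between related copies were counted, since disome footprints are longer than monosome footprints. Whether this shifted the ratios was not tested, so differences in ratio among the 9 genes carry that uncertainty. Column names of disome and monosome libraries begin with different codes, and anything those codes mark cannot be told apart from the footprint class. Every ratio is relative to the average gene. Carboxylesterases ranged from far below the average gene (Ces1d) to close to it (Ces2c, Ces3a and Ces3b), with none called higher in either diet. Ces1d, Ces2a and Ces2e were lower in disomes in both diets.

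In HFHS 0 of the 9 genes were called higher and 5 lower in disomes, where 11.5% and 13.6% of 7437 genes were called. In chow 0 were called higher and 4 lower, where 21.6% and 23.3% of 4713 genes were called. The median log2 ratio of the 9 was -0.56 in HFHS, beside -0.07 for all genes tested, and -0.20 in chow, beside -0.01.

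Ces1d had 681 and 882 CPM in HFHS disomes, against 1806 to 2038 CPM in HFHS monosomes. In chow it had 544 to 583 CPM in disomes, against 1548 to 1582 CPM in monosomes. The log2 fold change of disomes over monosomes was -1.29 ± 0.15 in HFHS (edgeR adjusted p = 9.09e-08) and -1.39 ± 0.14 in chow (edgeR adjusted p = 1.04e-10), a 2.45-fold and a 2.63-fold lower disome level. In the 5 barcodes found in both classes, its log2 ratio lay between -1.54 and -1.21, below that of every other member in every barcode. Libraries were paired here by barcode alone, which the labels do not tie to the same liver.

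Ces2a and Ces2e, with diet fold changes of opposite sign, both had fewer disomes for their monosomes than the average gene. For Ces2a the log2 ratio was -0.73 ± 0.23 in HFHS (adjusted p = 0.0221) and -0.83 ± 0.15 in chow (adjusted p = 2.32e-05). The HFHS call of Ces2a was lost in 3 fits. Its log2 ratio was smaller, at -0.42, without the monosome library GCATA (adjusted p = 0.113). Leaving out the disome library CTAGA gave -0.63 (adjusted p = 0.245), and leaving out the disome library GCATA gave -0.88 (adjusted p = 0.109), each with 1 HFHS disome library left. For Ces2e the ratio was -0.88 ± 0.18 in HFHS (adjusted p = 0.000591) and -0.77 ± 0.17 in chow (adjusted p = 0.000265). Ces2c lay on the other side of 0, with 0.28 ± 0.25 in HFHS (adjusted p = 0.438) and 0.29 ± 0.18 in chow (adjusted p = 0.200), neither past the threshold. Per barcode, the ratio of Ces2c lay between 0.10 and 0.30, above the -1.15 to -0.54 covered by Ces2a and Ces2e.

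The remaining members of the first subfamily passed in 1 diet each. Ces1f had a log2 ratio of -0.56 ± 0.16 in HFHS (adjusted p = 0.00993) and -0.20 ± 0.14 in chow (adjusted p = 0.259), and the HFHS call was lost without the disome library GCATA (log2 ratio -0.48, adjusted p = 0.106), with 1 HFHS disome library left. Ces1g had -0.74 ± 0.18 in HFHS (adjusted p = 0.00307) and -0.19 ± 0.16 in chow (adjusted p = 0.332). Ces1e had -0.22 ± 0.19 in HFHS (adjusted p = 0.445) and -0.50 ± 0.19 in chow (adjusted p = 0.0319). The chow call of Ces1e was lost under 5 alternatives, in which its log2 ratio stayed between -0.60 and -0.46. These were DESeq2 (-0.60, adjusted p = 0.0533) and the fits without the monosome library ATCGT (-0.46, adjusted p = 0.0656), the disome library ATCGT (-0.54, adjusted p = 0.0517), the disome library CGTAA (-0.52, adjusted p = 0.0724) or both AGCTA libraries (-0.57, adjusted p = 0.0629). No other chow call of the 9 genes was lost without both AGCTA libraries. These pairs of calls do not show that the ratio differed between diets, since the difference of the diet effects tested just that and passed for none.

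Both genes of the third subfamily lay near the average gene. Ces3a had 1794 and 1801 CPM in HFHS disomes, against 1627 to 1906 CPM in HFHS monosomes. Its log2 ratio was 0.07 ± 0.13 in HFHS (adjusted p = 0.761) and 0.19 ± 0.13 in chow (adjusted p = 0.246). Ces3b had -0.07 ± 0.17 in HFHS (adjusted p = 0.809) and -0.15 ± 0.16 in chow (adjusted p = 0.489).

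**Figure D4:**
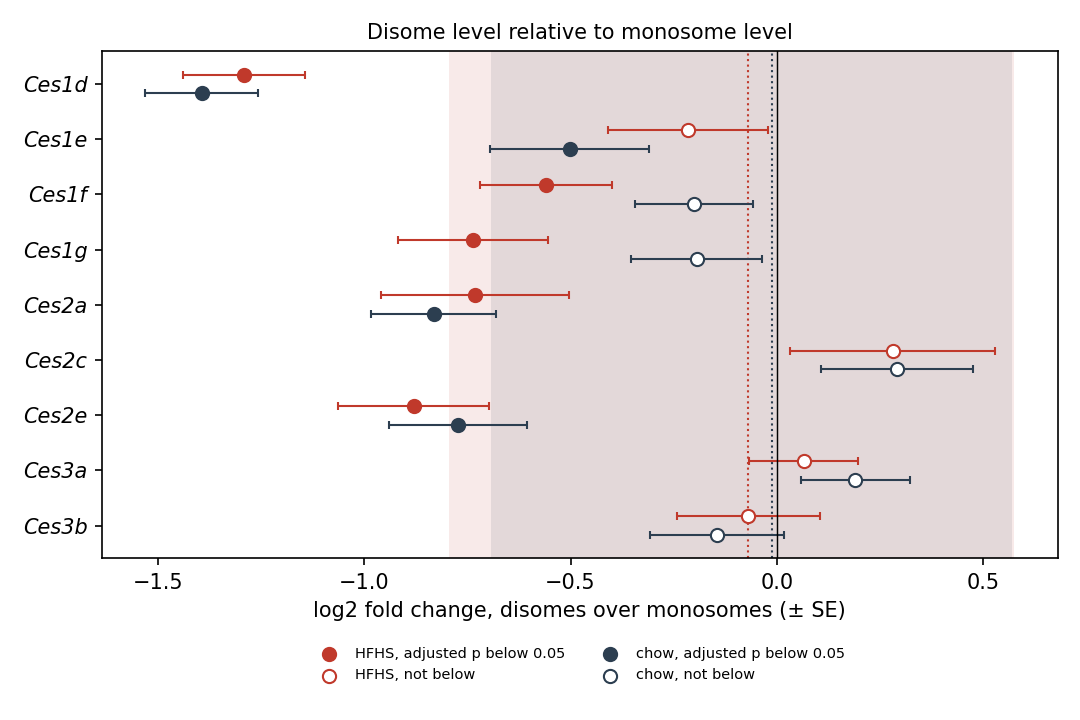
log2 fold change of disomes over monosomes (x axis, ± SE) for each gene within HFHS and within chow, filled where the edgeR adjusted p was below 0.05; shaded bands span the interquartile range of all genes tested and dotted lines mark their medians. Ces1d lies furthest below 0 in both diets, at -1.29 and -1.39, and Ces2c, Ces3a and Ces3b lie near the medians or above them.

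Across the 6 monosome libraries, the pattern of Ces1d, the gene with the highest mean monosome CPM of the 9, was most like that of Ces1e among the members (Pearson r = 0.92 of log2(CPM + 1)), followed by Ces2e (r = 0.89) and Ces3a (r = 0.80). Ces2a ran opposite (r = -0.77) and Ces2c less so (r = -0.44). Of 2165 genes outside the list with a mean of at least 50 CPM, 72 reached r above 0.9. The 2 most like it were ENSMUSG00000001467 (r = 0.97), with 257 ± 30.1 CPM in HFHS and 155 ± 2.29 CPM in chow, and ENSMUSG00000037266 (r = 0.97), with 218 ± 21.6 CPM in HFHS and 167 ± 6.40 CPM in chow (SD, n = 3 each). These correlations describe 6 libraries that the genes share, with the diet difference among them.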

How the data were processed

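Per the labels' protocols, frozen liver was lysed and digested with RNase I, and footprints of about 30 nt or 60 nt were cut from a gel and ligated to adaptors with a sample barcode and a molecular identifier. Per the submitters' processing notes, cutadapt 3.5 and Bowtie2 were used. Genome build, annotation, strand setting and the handling of molecular identifiers are not stated there. The authors deposited unnormalized whole-number counts for 22019 genes in 11 libraries, of which 8319 genes were 0 throughout. Columns carry a barcode and no replicate number, so each was placed in its group.

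The main test was the robust, two-sided quasi-likelihood F-test of edgeR 4.0.16 (R 4.3.3) after TMM scaling and edgeR's expression filter at a minimum count of 10. It was run in 5 comparisons, each fitted on the whole table and tried on simulated data. Those data had the same spread beyond counting noise for every gene and no library that stood apart. They therefore do not give the error rate in the libraries used here. SE is the log2 fold change divided by the square root of F. Alternatives were DESeq2 1.42.0, RLE size factors, other count filters, no robust estimation, 1 fit of all libraries, the barcode as a block, and each library left out. Counts of called genes use adjusted p below 0.05. Replicate libraries differed by more than counting noise. In a single library 3 counts, the limit a count of 0 allows, correspond to 10.7 to 20.4 CPM in disomes and 1.86 to 3.77 CPM in monosomes, for counting error only.

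Upstream windows were aligned with MAFFT 7.526. Members and lists were chosen with earlier results of these data known. All 9 members are named; the genes most like Ces1d were taken by the highest correlation among genes of at least 50 CPM. A list of further family, lipid hydrolysis and cell type genes, and levels per length, were not analysed here. The RefSeq table of 49997 genes held 0 Ensembl identifiers, and no coding lengths were at hand.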

Additional observations from a re-analysis of the deposited data

How the results depend on the processing

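The fall of Ces2a in monosomes kept its direction and its call under all 12 alternatives run for it. Of 139 values of called results under alternatives, 128 kept direction and call, 11 kept direction only and 0 changed sign; of 461 values of results not called, 1 passed the threshold and 21 changed sign. The number of the 9 genes called lower in disomes with diet was 0 with DESeq2 and 0 to 1 with a library left out, the number called higher in monosomes 0 to 1, and the number lower in disomes than in monosomes in HFHS 3 to 5.

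Sign changes concerned log2 values that were not called. With a library left out, Ces3b ranged from -0.16 to 0.062 for the diet in monosomes, from -0.14 to 0.20 in disomes and from -0.26 to 0.060 for disomes over monosomes in HFHS, where Ces2c ranged from -0.10 to 0.55. For the difference of diet effects the ranges were -0.049 to 0.33 for Ces1d, -0.33 to 0.34 for Ces2c, -0.30 to 0.14 for Ces2e, -0.18 to 0.043 for Ces3a and -0.026 to 0.28 for Ces3b. Ces3b was -0.031 in disomes with a minimum count of 50, and Ces3a was -0.072 for the HFHS ratio with no filter and 0.032 for the difference of diet effects without the AGCTA libraries, an alternative added after the data were seen. The cause was not tested.

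Deviations from the group mean correlated between libraries of the same barcode at r = 0.69, 0.86 and 0.69 in chow and 0.085 and 0.29 in HFHS. The chow means include AGCTA, which stood apart, so its deviation enters those of the other chow libraries. With 2 HFHS disome libraries, the deviations from their mean mirror each other. The diets therefore cannot be compared on these values. No paired analysis was possible because, for the diet comparisons, the columns carry no replicate number and no barcode recurs across diets. For the comparisons between classes, with the barcode as a replicate block, no call of the 9 genes changed: Ces1d had log2 ratios of -1.35 in HFHS and -1.39 in chow, and the diet difference of Ces2a was 0.10. Across all genes the block gave 7 calls lower for the difference of diet effects, against 0. DESeq2 called 55 genes lower in monosomes against 110, and 18 higher and 12 lower in disomes against 51 and 32. With no filter the median of all genes shifted by -0.14 in the HFHS ratio and -0.17 in the chow ratio. The subfamily sums kept their sign under every alternative. The order of levels per length was not run. Disome libraries held 20 to 500 counts per gene here, against 107 to 3108 in monosome libraries.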
